A study of Mus musculus with 16 samples.

Results

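The genes described here carry carnitine into cells and burn long- and medium-chain fatty acids inside mitochondria: Slc22a5, Cpt2, Acadm, Acadl, Acadvl, Hadha, Hadhb, Hadh, Acaa2 and Etfdh. They were listed by function, at a time when earlier results of these data were known. Of these 10 genes, 9 were matched to a probe and measured, among 16140 rows of the array that could be tested (9846 named genes and 6294 probes without a name). Hadhb had no matched probe and was not analysed here. Kidney RNA of 4 male mice labelled MFP2-/-, 15 weeks old, was compared on 2-colour cDNA arrays with 1 pool of kidney RNA from 5 wild-type males of the same age, labelled as the Swiss strain SWR/Ola Hsd. Each mutant mouse was hybridised on 4 arrays, 2 with its own RNA in Cy5 and 2 with it in Cy3, which gave 16 arrays in all. The labels give no strain background, litter or promoter for the mutant line, so genotype and any strain difference from the pool cannot be told apart. MFP2, encoded by Hsd17b4, is the multifunctional protein of peroxisomal fatty acid breakdown.

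Mitochondrial beta-oxidation shortens fatty acids in cycles of dehydrogenation, hydration, a further dehydrogenation and thiolytic cleavage. Long chains enter the mitochondrion as carnitine esters, so a cell needs carnitine from the blood, and electrons from the first step pass through the electron transfer flavoprotein to the respiratory chain. The proximal tubule of the kidney draws much of its energy from this pathway and also reclaims carnitine from the filtrate through the transporter encoded by Slc22a5.

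The deposited values are log ratios for each spot. All values below are read as log2 of mutant over pool, after each array was centred on its median, so a positive value means more signal from the mutant mouse. This direction is likely but not stated in the sources used here. It rests on the mutant being listed as the first channel and on 1 of the 2 probes for Hsd17b4, which disagree and are given below. The extreme spots, beyond 10 on the log2 scale, turned with the dye. The 292 spots of arrays that carried mutant Cy5 were positive without exception. The 218 of arrays that carried mutant Cy3 were negative, so their sign followed the dye that the mutant carried. These spots cannot tell the direction, since a ratio of pool over mutant could turn with the dye as well. Were the direction the opposite, each higher value below would be a lower one. Were every value Cy5 over Cy3 instead, the median of the measured genes would be -0.0088 and 6 of them would change sign. That reading is given with the alternatives at the end. Ratios carry no level, so neither the labelled tissue nor the signal over background could be checked from marker levels. In whole kidney, more RNA per cell and more cells of a type cannot be told apart.

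Promoter sequence is shown for 5 of the genes: Slc22a5, whose values were the closest between mice, Etfdh and Acadvl, which had the highest means, Acadm, whose mean was nearest to 0, and Hadha, whose upstream window lies wholly between its own start and that of Hadhb. The sequences are from RefSeq on build GRCm38.p6, and 9 of the 10 genes had a window there (all but Acaa2). Each runs 5′ to 3′ on the strand of the gene and ends next to its start, except that of Slc22a5, which was ended before the outermost start of the gene. Capitals mark matches to any of the motifs named in the next paragraph.
Slc22a5, chr11:53891797-53891953, minus strand: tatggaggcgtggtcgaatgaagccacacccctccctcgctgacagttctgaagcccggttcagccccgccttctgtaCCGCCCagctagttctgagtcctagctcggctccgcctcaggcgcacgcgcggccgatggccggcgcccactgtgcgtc
Etfdh, chr3:79628768-79629017, minus strand: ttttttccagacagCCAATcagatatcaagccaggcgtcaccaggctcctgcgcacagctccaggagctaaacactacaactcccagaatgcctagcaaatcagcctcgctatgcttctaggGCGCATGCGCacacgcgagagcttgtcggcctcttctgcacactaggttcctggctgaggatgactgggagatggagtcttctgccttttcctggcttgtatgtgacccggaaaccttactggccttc
Acadvl, chr11:70015429-70015678, minus strand: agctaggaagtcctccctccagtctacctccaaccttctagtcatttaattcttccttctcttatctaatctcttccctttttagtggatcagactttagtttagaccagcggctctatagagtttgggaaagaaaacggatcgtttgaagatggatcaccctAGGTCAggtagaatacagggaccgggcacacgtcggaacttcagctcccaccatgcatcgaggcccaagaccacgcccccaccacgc
Acadm, chr3:153944644-153944893, minus strand: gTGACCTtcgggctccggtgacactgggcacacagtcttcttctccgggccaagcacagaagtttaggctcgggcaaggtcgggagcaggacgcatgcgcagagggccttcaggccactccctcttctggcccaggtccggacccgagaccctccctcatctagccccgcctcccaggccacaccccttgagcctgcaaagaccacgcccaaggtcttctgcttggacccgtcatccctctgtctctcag
Hadha, chr5:30154981-30155230, minus strand: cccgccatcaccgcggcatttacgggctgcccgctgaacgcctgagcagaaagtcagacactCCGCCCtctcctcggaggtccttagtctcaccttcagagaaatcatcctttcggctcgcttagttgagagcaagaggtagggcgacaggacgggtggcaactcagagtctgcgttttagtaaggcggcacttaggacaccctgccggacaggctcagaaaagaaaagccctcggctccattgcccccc

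The motifs were searched on both strands of the 250 bases before each start and set against all 32851 windows of that length. The nuclear receptor half-site AGGTCA was in the windows of Acadm and Acadvl, 2 of 9, against 14% of all windows. Its longer forms were in none of the 9: TCAAGGTCA, read by the ERR receptors, was in 0.387% of all windows, and the DR1 element read by PPAR with RXR, written as 2 copies of AGGTCA with 1 base between them, was in 0.0335%, and each contains AGGTCA. A GC box, GGGCGG, was in 6 of the 9 windows (Acadl, Hadh, Cpt2, Hadha, Hadhb and Slc22a5) against 32.7% of all. The windows of Hadha and Hadhb overlap in most of their length and are not independent. The Hadha match at -188 is the same site as the Hadhb match at -90. CCAAT was in 2 of the 9, Etfdh and Hadh, against 33.8%. The NRF1 site, a palindrome searched as the longer capital run of the Etfdh line, was in that window alone among the 9, against 0.782% of all windows. The windows held between 49.6% and 73.6% G and C, against a median of 52.4% over all windows. The highest was that of Slc22a5 over its 250 bases, of which 157 are shown. Its GC boxes at -78 and -30 lie in the part not shown. Hadha and Hadhb, the genes of the 2 subunits of the mitochondrial trifunctional protein, lie head to head with starts 272 bases apart. A match shows only that the letters are present in the window.

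None of the 9 genes passed the adjusted threshold of 0.05 in limma's test of the 4 mice against 0, and the background was 0% of the 16140 rows, with 0.327 as the lowest adjusted value. Before adjustment, 5 of the 9 genes were higher than the pool (Slc22a5, Etfdh, Acaa2, Hadha and Acadvl) at a p under 0.05 and 0 were lower. Without mouse 4 that count was 3, and without mouse 1 it was 6. Over all rows 5.83% were higher and 3.21% lower at that level, and over named genes 6.44% and 2.46%. Mean ratios lay above 0 for 8 of the 9 genes, Acadm being the exception, against 50.1% of all rows and 54.1% of named genes. The median ratio of the 9 genes was 0.23 on the log2 scale, against 0.00041 over all rows and 0.012 over named genes. All 8 genes with a positive mean lay above the third quartile of all rows, 0.085. These counts describe genes that share a pathway and the same 4 mice, and no test was made over them. When the 16 arrays were fitted singly, joined by mouse through a random block, limma called 3 of the 9 genes higher (Slc22a5, Etfdh and Acaa2) and 0 lower, against 1.13% and 0.242% of rows; its consensus correlation between arrays of a mouse was 0.0353, so it counts those arrays as nearly independent.

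**Figure D1:**
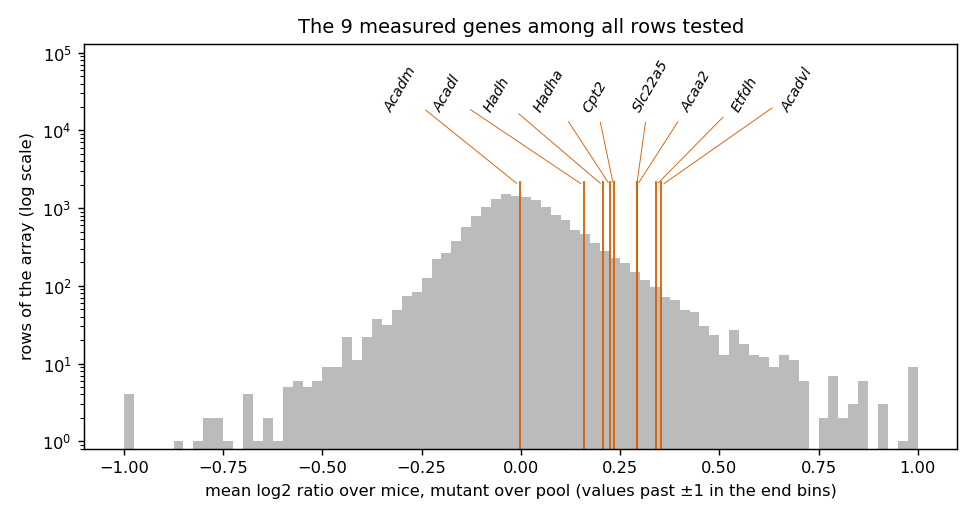
Histogram of the mean log2 ratio over mice, mutant over pool (x axis), for the 16140 rows tested (y axis, number of rows, log scale), with a vertical line at the mean of each of the 9 measured genes. Acadm sits near 0 and the other 8 lie to its right, between 0.16 for Acadl and 0.35 for Acadvl.

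Slc22a5 encodes OCTN2, the sodium-dependent carnitine transporter of the plasma membrane. Its log2 ratios were 0.32, 0.32, 0.28 and 0.25 in mice 1 to 4. All 4 mice lay above the pool and close together, and all 16 arrays were positive, from 0.082 to 0.47. The mean was 0.29 ± 0.03 (SD, n = 4), a 1.22-fold higher signal with a 95% interval of 1.12 to 1.34 (limma adjusted p = 0.548). An SD over mice this small or smaller was found in 253 rows, 1.57% of those tested. The 2 dye orientations gave 0.31 where the mutant carried Cy5 and 0.28 where it carried Cy3, so neither labelling decided the value.

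Cpt2 encodes carnitine palmitoyltransferase 2, which frees the fatty acid from carnitine on the inner face of the inner mitochondrial membrane. Its log2 ratios were -0.03, 0.40, 0.49 and 0.07 in mice 1 to 4. Mice 2 and 3 were high, and mice 1 and 4 lay near the pool. The mean was 0.23 ± 0.25 (SD, n = 4), with a limma interval of -0.02 to 0.49 and an adjusted p of 0.570, and without mouse 3 the mean was 0.15. Most of it came from the arrays with the mutant in Cy3, at 0.42, against 0.04 with the mutant in Cy5.

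The acyl-CoA dehydrogenases take the first step of each cycle and differ in the chain lengths they accept: Acadvl very long, Acadl long and Acadm medium chains. For Acadvl, mice 1 to 4 gave log2 ratios of 0.17, 0.82, 0.18 and 0.24. All 4 were above the pool, but mouse 2 stood far above the other 3, which lay between 0.17 and 0.24. The mean was 0.35 ± 0.31 (SD, n = 4), a 1.28-fold higher signal with an interval of 1.04 to 1.58 (limma adjusted p = 0.548). The SD of a single repeat array within a mouse and orientation was 0.51, against a median of 0.26 over all rows. The repeats furthest apart were those of mouse 2 with the mutant in Cy5. Without mouse 2 the mean was 0.20. In mouse 2 the arrays gave -0.36 and 1.53 for mutant Cy5, then 1.04 and 1.06 for mutant Cy3. Over the mice, the orientations gave 0.17 for mutant Cy5 and 0.53 for mutant Cy3. With the mutant in Cy5, mouse 4 lay below the pool, at -0.09.

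For Acadm, mice 1 to 4 gave log2 ratios of -0.24, 0.26, -0.02 and -0.0028. Mouse 1 lay below the pool, mouse 2 above it and the other two near 0. The mean was -0.0032 ± 0.20 (SD, n = 4) with a limma interval of -0.23 to 0.22, which leaves room for a change of up to 1.16-fold higher or to 0.855 of the pool. Acadm was matched by 2 probes, and their means of -0.0014 and -0.0050 were alike. The orientations differed in sign, 0.16 for mutant Cy5 and -0.17 for mutant Cy3, so the mean near 0 balances 2 unlike readings.

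Acadl was the least well measured of the 9. Its log2 ratios were -0.10, 0.45 and 0.13 in mice 1, 2 and 4, a mean of 0.16 ± 0.27 (SD, n = 3, limma adjusted p = 0.679). Mouse 3 had 1 array with a value, -1.15, and was left out of the fit because only 1 orientation was present. Without mouse 2 the mean was 0.015, and the random-block fit, which uses the mouse 3 array, gave 0.028. In all, 12 of the 16 arrays gave a value for this gene and 8 were positive.

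Acadvl exceeded Acadm in each of the 4 mice, by 0.41, 0.56, 0.21 and 0.24 on the log2 scale. The mean difference was 0.36 ± 0.16 (SD, n = 4), and the exact two-sided sign-flip test gave p = 0.125, the smallest that 4 mice allow. Acads, the short-chain enzyme, had a mean of 0.011 ± 0.17 and lay below Acadvl in 3 of 4 mice (exact p = 0.25). Both differences were chosen after the values were seen. With 4 mice the sign-flip test cannot pass the threshold, whatever the values. It therefore cannot decide whether the ratios differ by chain length, and no conclusion is drawn from it.

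Hadha encodes the subunit of the trifunctional protein that hydrates long-chain enoyl-CoA and dehydrogenates the product. Mice 1 to 4 had log2 ratios of 0.06, 0.37, 0.14 and 0.33, all above the pool. The mean was 0.23 ± 0.15 (SD, n = 4), 1.17-fold with an interval of 1.03 to 1.33 (limma adjusted p = 0.548). Of the 15 arrays with a value, 13 were positive. The SD of a single repeat array within a mouse and orientation was 0.40, against a median of 0.26 over all rows. The first repeats alone gave a mean of 0.042 against 0.35 for the second. The 2 means are not over the same mice, since mouse 2 lacked a first repeat in Cy3 and entered only the second.

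Hadh encodes the matrix 3-hydroxyacyl-CoA dehydrogenase for medium and short chains. Its log2 ratios were 0.02, 0.51, 0.05 and 0.24 in mice 1 to 4. Mouse 2 was high, mouse 4 in between, and mice 1 and 3 close to the pool. The mean was 0.21 ± 0.23 (SD, n = 4, limma adjusted p = 0.574), with 0.20 in Cy5 and 0.22 in Cy3, and without mouse 2 it was 0.11.

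Acaa2 encodes the mitochondrial 3-ketoacyl-CoA thiolase that cleaves off acetyl-CoA at the end of the cycle. Mice 1 to 4 gave log2 ratios of 0.17, 0.41, 0.49 and 0.10, all above the pool. Averaged over both orientations, mice 2 and 3 were the higher pair, as they were for Cpt2. With the mutant in Cy5 alone, mouse 2 was the lowest for Acaa2, at 0.29, and gave -0.08 for Cpt2. The Acaa2 mean was 0.29 ± 0.19 (SD, n = 4), 1.22-fold with an interval of 1.06 to 1.42 (limma adjusted p = 0.548). Here the arrays with the mutant in Cy5 gave the larger value, 0.46 against 0.13.

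Etfdh encodes the oxidoreductase that passes electrons from the electron transfer flavoprotein to ubiquinone. Its log2 ratios were 0.30, 0.50, 0.11 and 0.44 in mice 1 to 4, all above the pool, and 14 of 16 arrays were positive. The mean was 0.34 ± 0.17 (SD, n = 4), 1.27-fold with an interval of 1.10 to 1.45 (limma adjusted p = 0.548). Nearly all of it came from the arrays with the mutant in Cy3, at 0.60, against 0.08 with the mutant in Cy5. The arrays with the mutant in Cy5 alone would have placed it near the pool.

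**Figure D2:**
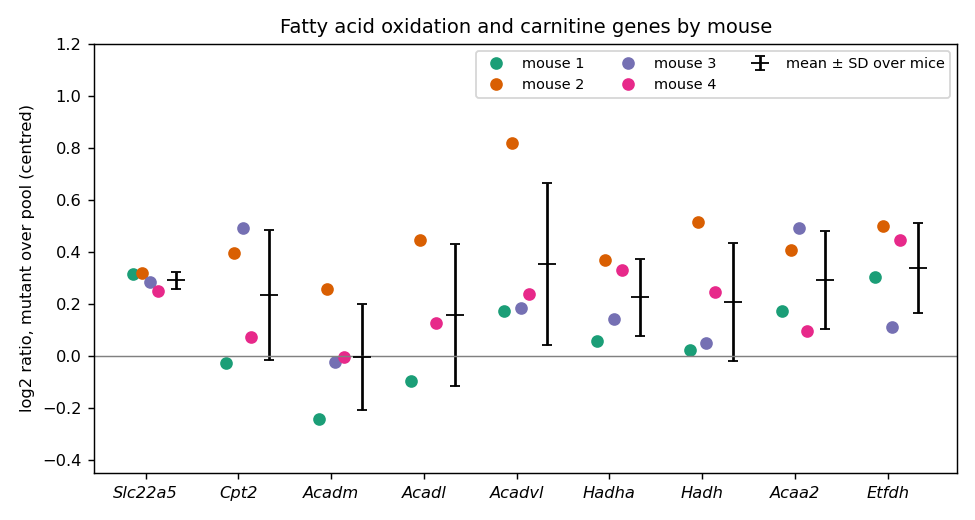
Mean log2 ratio, mutant over pool (y axis), of each of the 9 measured genes in each mouse (points) with the mean and SD over mice. Slc22a5 holds its 4 points between 0.25 and 0.32, whereas Acadvl has mouse 2 alone at 0.82, and Acadl has 3 points.

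Mice did not carry equal ratios. Medians over the 9 genes were 0.06, 0.41, 0.16 and 0.24 for mice 1 to 4. Mouse 1 had 6 of 9 genes above 0, mouse 2 had 9 of 9, mouse 3 had 7 of 8 and mouse 4 had 8 of 9. Of the 8 genes measured in all mice, 6 were above 0 in each mouse (Slc22a5, Acadvl, Hadha, Hadh, Acaa2 and Etfdh), against 10% of the rows measured in all 4. Mouse 2 was the highest for 6 of these 8 genes, against 31% of rows, and mouse 1 the lowest for 5, against 24.7%. The arrays of mouse 2 also stood apart before any processing. They had 55 to 71 spots beyond 10 each, against 12 to 35 on the arrays of other mice. They held the fewest values, 19737 to 19816, against 19939 or more elsewhere. Whether this bears on the ratios of mouse 2 was not tested. In limma's F-test between mice, whose spread is that between arrays of one mouse, 0 of the 8 genes passed the adjusted threshold, as did 0.183% of 15856 rows. Unadjusted p under 0.05 was reached by Acadm (0.0265) and Hadh (0.0383, adjusted 0.408), against 11.2% of rows.

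The 2 dye orientations were also set against each other. Of the 9 genes, 8 were positive on the arrays with the mutant in Cy5 (45.4% of all rows) and 8 on those with it in Cy3 (55.3%); Acadl was the exception in the first and Acadm in the second. The Acadl value of -0.08 in Cy5 includes the mouse 3 array at -1.15, which had no partner in Cy3; mice 1, 2 and 4 had 0.23, 0.30 and 0.30. The medians were 0.16 and 0.28. The dye term passed the adjusted threshold for 1 of 8 genes, Etfdh, with a difference of -0.51 for Cy5 minus Cy3 (adjusted p = 0.0208), against 8.4% of rows. That call was lost, with 0 genes passing, when the difference was taken per mouse and tested over 4 mice, and 3 genes passed without centring. Before adjustment, the term was under 0.05 for 4 of the 8 genes, against 30% of rows. After Etfdh came Acadm (adjusted p = 0.0542), Acaa2 (0.0829) and Cpt2 (0.131). Of the 16 arrays, 15 had a median over these genes above 0, and 14 had most of the genes positive.

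**Figure D3:**
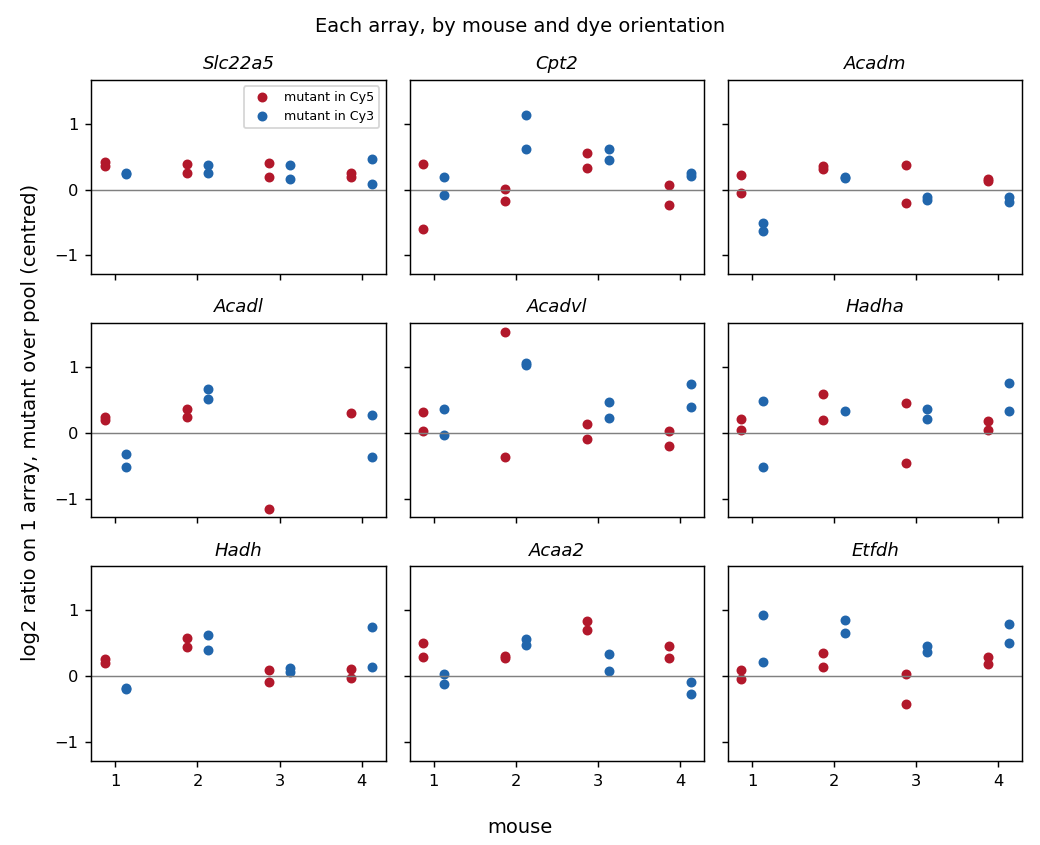
Centred log2 ratio, mutant over pool, of the 9 measured genes on each of the 16 arrays, set out by mouse and dye orientation. Slc22a5 is positive on every array, while the Cy3 mean exceeds the Cy5 mean in all 4 mice for Etfdh and Cpt2, and the Cy5 mean is the higher for Acaa2 in each mouse but mouse 2.

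Of 66 other genes of the pathway listed by role, 46 were measured, and 35 had a mean above 0 against 11 below, with a median of 0.11. None passed the adjusted threshold in limma, where the background was 0%. At an unadjusted p under 0.05, 9 were higher and 1 lower, against 5.83% and 3.21% of all rows. Without mouse 2 that total of 10 came to 4, and without mouse 4 to 3. Medians by mouse were 0.04, 0.21, 0.05 and 0.12, which places the mice in the same order as the 9 genes do. By role, means were positive for 8 of 9 synthetases and thioesterases, 7 of 8 other dehydrogenases, 5 of 6 hydratases and isomerases, 4 of 4 genes of the propionate branch, 7 of 11 regulators, 2 of 4 genes of carnitine supply and shuttle, 1 of 2 thiolases and ketone body enzymes and 1 of 2 subunits of the electron transfer flavoprotein, against 50.1% of all rows and 54.1% of named genes. Differences between roles were not tested.

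Slc22a21, a carnitine transporter gene next to Slc22a5 in the annotation, had the smallest p of the 46. The log2 ratios were 0.21, 0.48, 0.40 and 0.45 in mice 1 to 4, a mean of 0.38 ± 0.12 (SD, n = 4, limma adjusted p = 0.548). The orientations gave 0.55 for mutant Cy5 and 0.22 for mutant Cy3. The 2 genes are close relatives in sequence family, and whether their cDNA probes share signal was not tested. Cpt1b, the muscle form of the outer-membrane carnitine palmitoyltransferase, gave -0.04 ± 0.11. Cpt1a and Slc25a20 had no matched probe and were not analysed here.

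Among the synthetases, which activate fatty acids to CoA esters, Acsl5 had 0.31 ± 0.31 and Acss1, the mitochondrial acetyl-CoA synthetase, 0.18 ± 0.07. Among other dehydrogenases, Gcdh, the glutaryl-CoA dehydrogenase of lysine breakdown, had 0.35 ± 0.29 and Acad11 had 0.14 ± 0.07. Of the hydratases, isomerases and auxiliary enzymes, Hsd17b10 had 0.30 ± 0.20, Eci2, an enoyl-CoA isomerase, 0.20 ± 0.14 and Echdc3 0.19 ± 0.08. The short-chain hydratase Echs1 gave 0.21 ± 0.33, with mouse 2 at 0.64 and mouse 1 at -0.11. Each of these genes was at an unadjusted p under 0.05 except Echs1, and each mean is over 4 mice with its SD. Arrays with the mutant in Cy5 gave the larger value for Hsd17b10 (0.46 against 0.14), Acss1 (0.28 against 0.08) and Gcdh (0.44 against 0.26). For the other genes of this paragraph those with the mutant in Cy3 did.

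The partners of Etfdh were split. Etfb, the beta subunit of the electron transfer flavoprotein, had a mean of 0.19 ± 0.19 and was positive in all 4 mice, whereas Etfa, the alpha subunit, had -0.05 ± 0.21 and was positive in mouse 4 alone. Neither was under 0.05 before adjustment.

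Of the regulators, Sirt3, the mitochondrial deacetylase, had 0.25 ± 0.21, with 0.44 for mutant Cy5 and 0.07 for mutant Cy3. It was the one regulator higher at an unadjusted p under 0.05. Ppard, a fatty acid receptor gene, was the one lower, at -0.25 ± 0.14, below the pool in all 4 mice (limma adjusted p = 0.548). Ppara, the fatty acid receptor best known for inducing these enzymes, had 0.10 ± 0.06 over 5 probes. Ppargc1a, a coactivator of mitochondrial genes, had 0.19 ± 0.31 and Esrra, a receptor that binds the longer half-site above, had -0.13 ± 0.37.

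**Figure D4:**
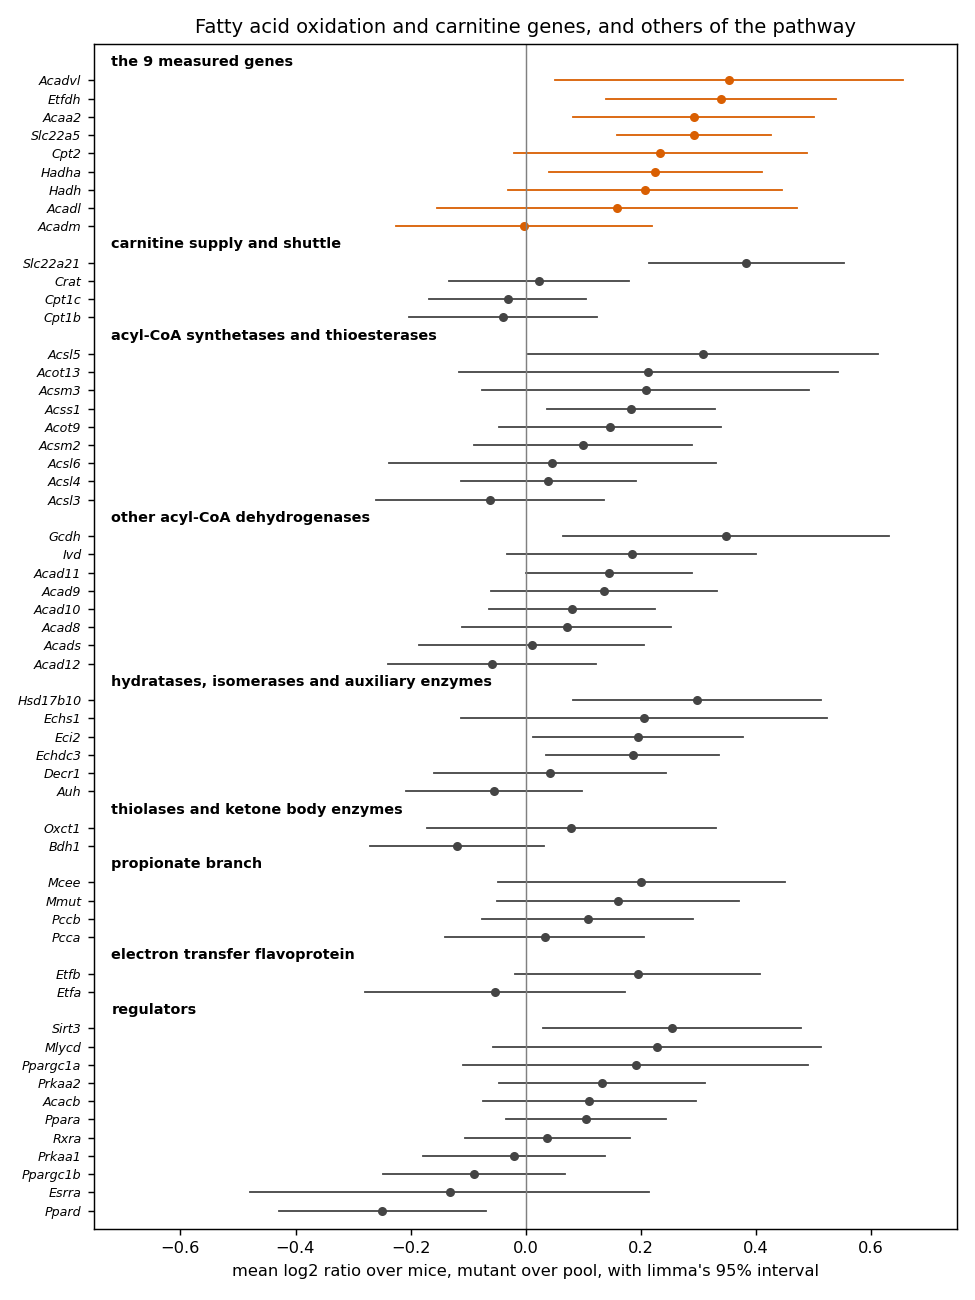
Mean log2 ratio over mice, mutant over pool (x axis), of the fatty acid oxidation and carnitine genes (orange) and of the other pathway genes by role (grey), with limma's 95% interval as the bar. Most points lie right of 0 among the synthetases, dehydrogenases and hydratases, and Ppard is the lowest at -0.25.

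Ratios of cell type markers are set beside those of the 9 genes. Of 15 proximal tubule markers 9 were measured and 7 were positive, with medians of -0.07, 0.35, 0.10 and 0.25 in mice 1 to 4, against 0.06, 0.41, 0.16 and 0.24 for the 9 genes. Means were 0.66 for Miox (with mouse 1 at -0.25), 0.31 for Fbp1, 0.24 for Cubn and for Aqp1 and 0.21 for Slc22a8. Lrp2 and Slc22a6 lay near 0, at 0.02 and 0.015. Slc13a3 had -0.11, below the pool in 3 of 4 mice, and Slc34a1, the phosphate transporter, -0.20, below it in all 4. The 4 measured markers of the loop of Henle had medians of 0.17, 0.79, 0.22 and 0.33, highest in mouse 2 as well; Slc12a1 had a mean of 0.56 and Umod, the uromodulin gene, -0.15. The medians of other segments had another order of mice and were lowest in mouse 2. They were 0.15, 0.13, 0.22 and 0.16 for the 4 distal tubule markers measured. For the 5 of the collecting duct they were 0.34, -0.01, 0.16 and 0.11. Single genes of these lists did not share that order. S100g (mean 0.65), Aqp2, the water channel of the collecting duct (0.46), and Atp6v1g3 (0.36) were highest in mouse 2, at 1.16, 0.81 and 0.73. Pvalb and Slc26a4 were lowest in mouse 2, and Trpm6, Wnk4, Slc4a1 and Foxi1 were neither. The part of segment composition in the ratios above was not tested. Endothelial markers (6 of 6) had medians of 0.02, 0.16, 0.07 and -0.07, adrenal cortex markers (3 of 6) 0.20, -0.17, 0.46 and -0.16, and the 1 podocyte marker measured had 0.25, 0.40, -0.08 and 0.34. Markers of fibroblasts and smooth muscle (6 of 7 measured) had medians of -0.14, -0.04, -0.14 and 0.02, those of leukocytes (4 of 8) -0.17, 0.0071, -0.09 and 0.03, and those of adipocytes (6 of 8), a tissue that can adhere to kidney, 0.01, 0.02, 0.04 and -0.13.

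**Figure D5:**
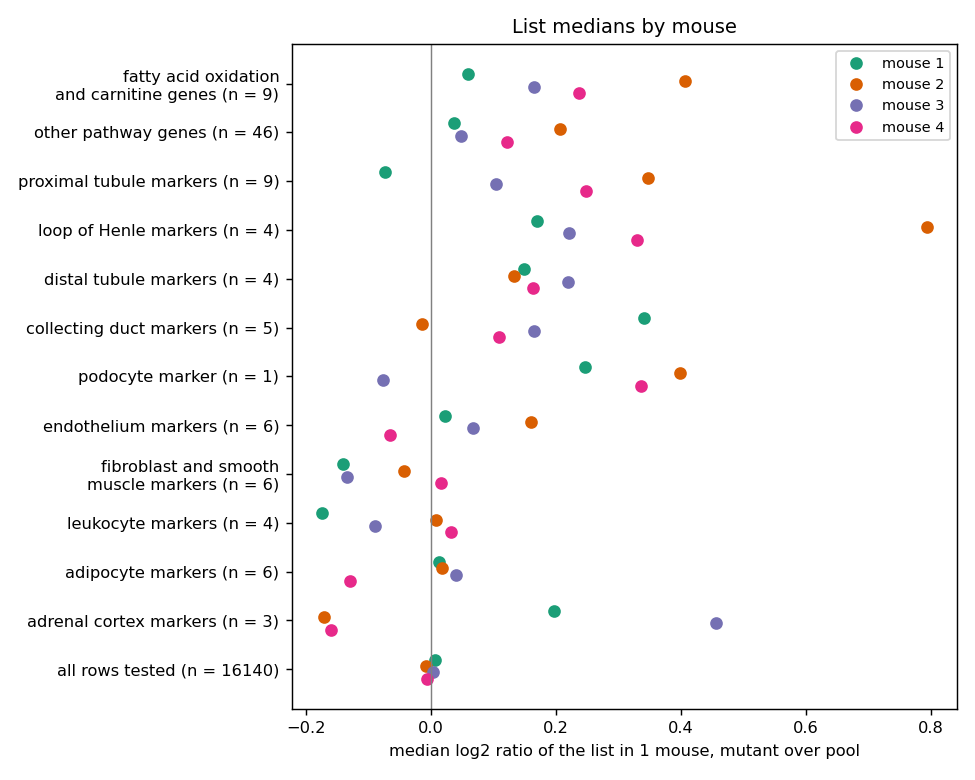
Median log2 ratio, mutant over pool (x axis), of each gene list (y axis, n genes measured), with one point for each mouse. Mouse 2 is highest and mouse 1 lowest for the fatty acid oxidation and carnitine genes and the markers of proximal tubule and loop of Henle. The medians of the distal tubule and collecting duct markers are lowest in mouse 2, an order that single genes of these lists do not all share. The fibroblast and leukocyte markers stay near or below 0.

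Genes closest in pattern to the mean profile of the 9 genes were found by root mean square difference over the 16 arrays, among 9058 named genes with a value on each array. The profile averages the genes that had a value on an array, so it includes the mouse 3 Acadl array at -1.15. The smallest difference, 0.112 on the log2 scale, was that of Ndufv1, which encodes a subunit of respiratory complex I. Hsd3b3 (0.130), Aqp6 (0.144), Iscu (0.153) and Mcee (0.153) followed, against a median of 0.412 over all candidates. In mice 1 to 4, Ndufv1 had 0.07, 0.50, 0.25 and 0.22 on the same scale. Among the genes themselves Hadh lay nearest to the profile, at 0.164, and Acadl farthest, at 0.436. Each of the 9 is part of the profile, so these differences are not on equal terms with those of other genes. Likeness over 16 arrays of 4 mice is a description.

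Hsd17b4, the targeted gene, was read by 2 probes that disagree. One gave -1.69, -1.50, -0.10 and -0.34 in mice 1 to 4, a mean of -0.91 ± 0.80 (SD, n = 4). The other gave 0.02, 0.83, 0.34 and 0.52, a mean of 0.43 ± 0.34. The exons they cover are unknown here, and they do not settle the labels of mice 3 and 4. The deposited arrays held between 19737 and 20228 values each, with medians between -0.15 and 0.10 before centring. Precision is limited by 4 mice and by the single pool, whose own spread does not enter any test.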

How the data were processed

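Kidney RNA of 4 mutant mice was compared with 1 wild-type pool on 16 2-colour arrays. The authors deposited 1 log2 ratio per spot; base 2 was inferred from the range, and their normalization was not given in the sources used here. Arrays of a mouse were joined by its mouse ID label; for mouse 1 the titles and source names give different animal numbers. Of 20355 probes, 14030 had 1 symbol, 5 several and 6320 none; 13994 symbols were looked up in RefSeq (GRCm38.p6). Values beyond 10 were set to missing, arrays were centred on their medians, and the 2 repeats of an orientation and then both orientations were averaged per mouse. Rows needed both orientations in at least 3 mice, and probes of a symbol were averaged. limma 3.58.1 in R 4.3.3 tested the mice against 0, two-sided, with Benjamini-Hochberg adjustment over all rows at 0.05. A fit over 16 arrays tested mice and dye on 15856 rows. The scripts were tested on simulated data. All listed genes are named, other pathway genes if under 0.05 unadjusted or acting beside a listed gene; nearest genes are the 5 smallest differences. Genes and lists were chosen with earlier results of these data known. Alternatives covered centring, scaling, missing values, orientations, repeats, probes, the prior, the direction, a random mouse block and leaving out each mouse.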

Additional observations from a re-analysis of the deposited data

Results flagged for a closer look

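Acadvl had 1 mouse far from the others: the gap between mouse 2 (0.82) and the next mouse (0.24) took up 0.898 of the whole range of the 4 mice. Of 9 genes looked at this way (the 8 measured in all mice and Hsd17b4), 1 stood out, and chance marks about 1 in 20 groups. Without mouse 2 the mean of Acadvl was 0.20.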

How the results depend on the processing

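With the arrays fitted singly and a random block for each mouse (limma, consensus correlation 0.0353), 3 of the 9 genes passed the adjusted threshold: Slc22a5 (0.29, adjusted p = 0.00139), Etfdh (0.34, 0.0171) and Acaa2 (0.29, 0.0456), with 221 rows called over the array (1.13% higher, 0.242% lower) and 16 pathway genes under 0.05 unadjusted. This fit counts arrays of one mouse as nearly independent. Arrays with the mutant in Cy5 alone gave 2 of the 9 genes under 0.05 unadjusted, 3 rows called and Acadm at 0.16. Acadl was then -0.081, which includes the mouse 3 array at -1.15 that the main values leave out. Arrays with the mutant in Cy3 alone gave 1 row called. The first repeats alone gave Acadm 0.068 and Hadha 0.042, the latter with no value for mouse 2. Read as Cy5 over Cy3 without turning the sign, 3 genes were under 0.05, the median was -0.0088, 12 rows were called, 6 pathway genes were under 0.05, and Cpt2 (-0.19), Acadm (0.17), Acadvl (-0.18), Hadha (-0.064), Hadh (-0.0088) and Etfdh (-0.26) changed sign. Leaving out each mouse in turn gave 3 to 6 genes and 3 to 10 pathway genes under 0.05, a median of the 9 genes of 0.18 (without mouse 2) to 0.29 (without mouse 4), and Acadm from -0.090 to 0.077; without mouse 4, 3 genes were under 0.05. The dye term was called for 3 genes without centring and for 0 when tested as a difference per mouse. Of 159 single-gene values under alternatives, 145 kept direction and side of the threshold, 11 changed sign and 3 became called. Acadl gave no value where all 16 arrays or only first repeats were used, and Hadha none where all 16 were. Beyond the block and the dye readings, the cause was not tested. No paired analysis was possible because the pool is the single control.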

Other observations

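The order of genes around Slc22a5 in the annotation is Rad50, Il5, Irf1, Slc22a5, Slc22a21, Slc22a4 and Pdlim4. Of the genes around the transporter pair, Rad50, Irf1 and Pdlim4 were measured, and their means were lower than those of the pair. Slc22a5 and Slc22a21 had mean log2 ratios of 0.29 and 0.38, both positive in all 4 mice. Irf1, the interferon regulatory factor gene next to Slc22a5, had -0.05 ± 0.09, Rad50, a DNA repair gene, 0.12 ± 0.13 and Pdlim4 -0.06 ± 0.43 (SD, n = 4). Il5 and Slc22a4 were not analysed here. These genes were chosen after the values of Slc22a21 were seen, and no difference between them was tested.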
